A study of Drosophila melanogaster with 6 samples.

Results

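The cytochrome P450 family of Drosophila melanogaster was followed in whole embryos lacking FoxL1, a forkhead transcription factor, and in wild-type embryos. The genes were taken by current symbol, Cyp followed by a number, with Cyp18a1 left out, and each was represented by the probe set with the highest mean over the arrays. The rule found 82 of the 11982 genes measured by a probe set that names 1 gene. Of these 82, 80 are P450 genes and are the members described here. The other 2, Cyp1 and Cyp40, share only the first letters of the symbol: they are cyclophilins, which catalyse the isomerisation of prolyl bonds in proteins, and are reported apart. The reference gene table lists 84 P450 genes under such symbols, and 4 of them, among them 2 pseudogenes, had no probe set of their own.

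Null embryos were collected from flies of the genotype foxLCr/foxL1del, and control embryos from the wild-type line Oregon R. Each genotype had 3 Affymetrix Drosophila Genome 2.0 arrays, each from a separate RNA sample of whole embryos labelled as stages 11 to 15. For both genotypes the protocol gives 8 h of collection at room temperature, then 11 h of ageing, which does not match the labelled stages well, so the exact age of the embryos is uncertain. The 2 fly lines may differ elsewhere in the genome, and such differences cannot be told apart from the effect of the foxL1 alleles. The same holds for any difference in age between the null and the wild-type embryos. In whole embryos fewer cells of a type and less RNA per cell cannot be told apart.

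P450 enzymes are haem proteins that insert an oxygen atom into small lipophilic molecules. In insects some members make hormones and cuticle lipids, while many of the large Cyp4, Cyp6, Cyp9, Cyp12 and Cyp28 families are known or thought to break down plant toxins, insecticides and internal lipids in the gut, Malpighian tubules and fat body. They fall into 4 clans, of which the CYP2, CYP3 and CYP4 clans sit in the endoplasmic reticulum and the mitochondrial clan in mitochondria. Many arose by tandem duplication, and related genes lie side by side on the chromosomes.

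Values are log2 signals from robust multi-array averaging (RMA), differences are foxL1 null minus wild type on that scale, and a call is a Benjamini-Hochberg adjusted p under 0.05 in a limma fit over all 18769 probe sets that are no controls. Pearson's r over probe sets, which are not independent, was 0.987 to 0.993 among null arrays, 0.990 to 0.995 among wild-type arrays and 0.980 to 0.989 across genotypes. The FoxL1 probe set fell in the null embryos, to a mean of 3.98 ± 0.54 against 5.00 ± 0.14 in the wild type (SD, n = 3 each), with limma giving -1.01 (SE 0.25, adjusted p = 0.0489). The labels do not give the extent of the deletions, so this probe set may lie outside them. Null array 3 stood apart with an array weight of 0.316, against 0.600 to 2.15 for the other 5. Without it 10 P450 members passed, 9 of them among the members called from all arrays. Of 9 measured embryonic patterning, nerve and muscle genes 1 fell (ftz at -0.81, SE 0.19, adjusted p = 0.0443) and 2 fell with the replicate block. At an unadjusted p under 0.05, 5 of the 9 were lower (55.6%), against 27.1% of all genes at such a p in either direction. The summed signal of the 9 ran from 11.14 to 11.62 in the null arrays and from 11.26 to 11.44 in the wild-type arrays.

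Single P450 genes changed strongly in both directions, while the median of the family was that of all genes. Of the 80 members 8 fell, 3 rose and 69 did not pass. That is 13.8% of the members called, against 10.2% of all genes. Members that fell made up 10.0%, against 4.00% of all genes, and members that rose 3.75%, against 6.24% of all genes. The median difference of the members was -0.07 and that of all genes -0.07 (both 0.05 with each array centred on its median). Of the members 50 were lower and 30 higher, beside 7189 lower and 4793 higher of all 11982 genes. At 27 of the 80 members, or 33.8%, the null and wild-type arrays did not overlap, against 31.9% of all genes. Among the 80, 7 differed by at least 2-fold, or 8.75%, against 2.73% of all genes. An unadjusted p under 0.05 in limma was reached by 27 of the 80, or 33.8%, against 27.1% of all genes. That 27.1% is the background of all such counts below. No test of the family as a set was made, so these shares are descriptions.

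With the array numbers of the titles as a block, limma called 19 members, 13 lower and 6 higher, which included all 11. The share of all genes called was then 17.0%, with 9.09% lower and 7.92% higher. Each array was also left out in turn, and 6 of the 11 calls (Cyp309a2, Cyp12d1-d, Cyp6a13, Cyp6t1, Cyp28a5 and Cyp9c1) held in all 6 of these fits. The number of members that fell was 5 without null array 1 and 5 without wild-type array 3.

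**Figure D1:**
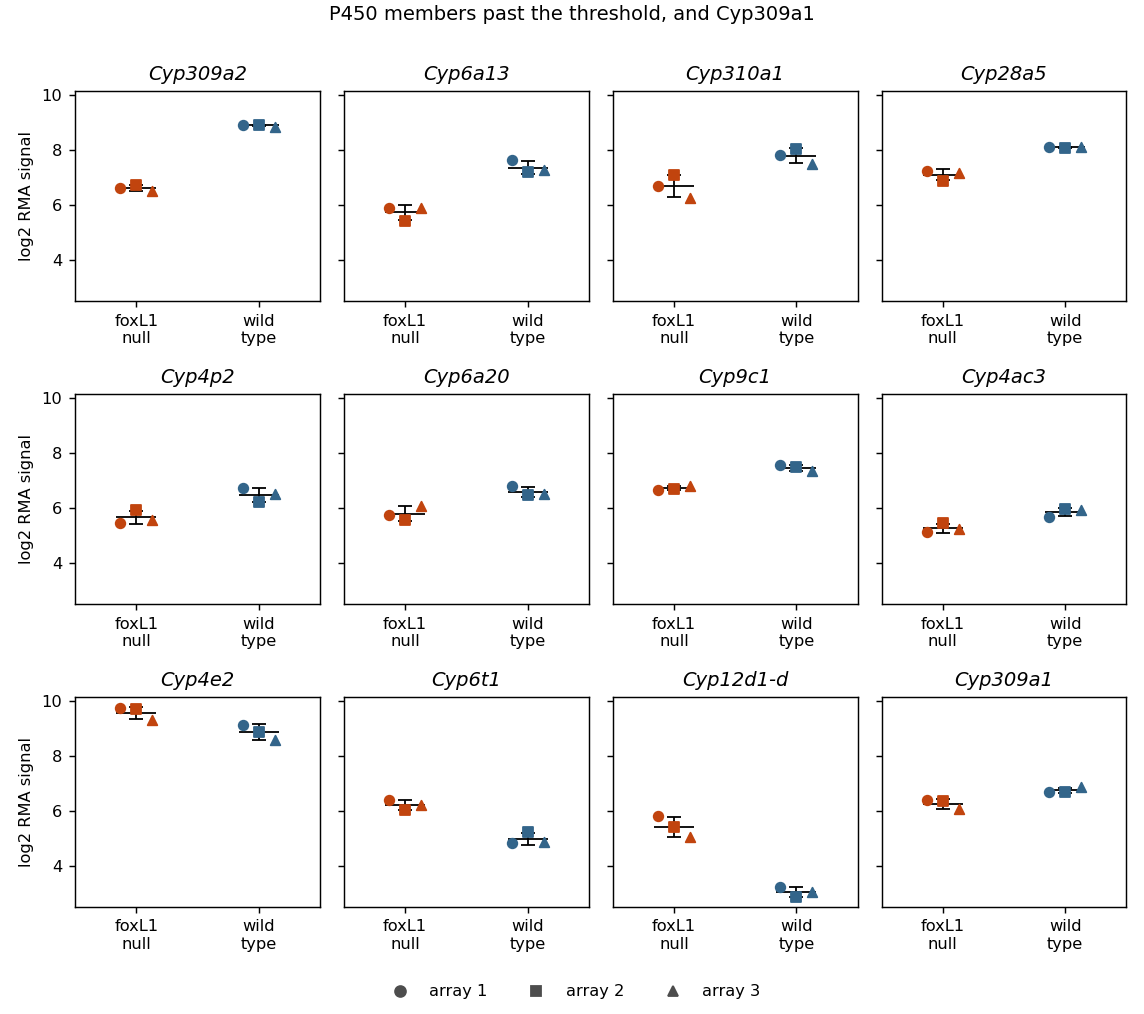
Log2 RMA signal of the 11 P450 members past the threshold and of Cyp309a1, one panel per gene, with foxL1 null arrays on the left and wild-type arrays on the right; symbols give the array number, bars the mean ± SD (n = 3 each). In each panel the groups do not overlap; heights are not to be compared between panels, since each probe set has its own response.

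The Cyp309 pair held the member that fell the most. Cyp309a2 (Dmel_CG18559, arm 2L) read 6.64, 6.75 and 6.51 in the null arrays, against 8.91, 8.93 and 8.87 in the wild-type arrays. The wild-type arrays lay close together and the null arrays far below them, 4.83-fold lower (limma log2 difference -2.27, SE 0.10, adjusted p = 0.000105). Its neighbour Cyp309a1 read 6.40, 6.37 and 6.07 in the null arrays, against 6.71, 6.71 and 6.87 in the wild-type arrays. The groups again did not overlap, but the difference was smaller and missed the threshold (limma log2 difference -0.49, SE 0.12, adjusted p = 0.0555, and 0.0491 with the replicate block). It was 0.160 with each array centred on its median.

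Other genes of the CYP3 clan, the largest clan in the fly, made up most of the falls. Of its 37 measured genes 6 fell, 1 rose and 30 did not pass (18.9% called, against 10.2% of all genes). The median difference was -0.02 and the range -2.27 to 1.24. Cyp6a13 (Dmel_CG2397) read 5.92, 5.43 and 5.90 in the null arrays, against 7.64, 7.22 and 7.28 in the wild-type arrays. All null arrays were below all wild-type arrays, by 3.09-fold on average (limma log2 difference -1.63, SE 0.17, adjusted p = 0.00232). Cyp28a5 (Dmel_CG8864) belongs to a family known from cactus-feeding Drosophila species for its induction by plant alkaloids. It read 7.25, 6.88 and 7.19 in the null arrays, against 8.12, 8.10 and 8.14 in the wild-type arrays, again with no overlap (limma log2 difference -1.02, SE 0.12, adjusted p = 0.00339).

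Cyp9c1 read 6.68, 6.69 and 6.82 in the null arrays, against 7.56, 7.51 and 7.35 in the wild-type arrays. It was lower in every null array than in any wild-type array (limma log2 difference -0.75, SE 0.11, adjusted p = 0.00609). Cyp310a1 read 6.70, 7.09 and 6.28 in the null arrays, against 7.85, 8.07 and 7.52 in the wild-type arrays. The groups did not overlap, and in both of them array 2 was the highest and array 3 the lowest (limma log2 difference -1.12, SE 0.22, adjusted p = 0.0230). This call ended without null array 1 (0.0752) and, likewise, wild-type array 1 or 2 (0.0825 and 0.0728).

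Cyp6a20, known for its effect on aggression between adult males, read 5.76, 5.58 and 6.10 in the null arrays, against 6.82, 6.48 and 6.52 in the wild-type arrays. Its null arrays were all lower (limma log2 difference -0.79, SE 0.16, adjusted p = 0.0258). Its call was lost in 5 of the 6 fits that left out an array: 0.0854 and 0.0540 (null array 1 or 2), and 0.0951, 0.0556 and 0.0822 (wild-type array 1, 2 or 3). The one CYP3-clan gene that rose was Cyp6t1 (Dmel_CG1644), on the X chromosome. It read 6.41, 6.05 and 6.22 in the null arrays, against 4.84, 5.24 and 4.87 in the wild-type arrays, all null arrays above all wild-type arrays and 2.37-fold higher (limma log2 difference 1.24, SE 0.15, adjusted p = 0.00339).

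Among the Cyp6 genes as a family, 2 of 23 fell, 1 rose and 20 did not pass, beside 10.2% of all genes called. The genes best known for insecticide resistance showed no call. Cyp6g1, whose overproduction makes adult flies resistant to DDT, read 3.79, 3.52 and 4.11 in the null arrays, against 3.88, 4.07 and 3.86 in the wild-type arrays (limma log2 difference -0.13, SE 0.16, adjusted p = 0.712). The groups overlapped, as they did for its neighbours Cyp6g2 (0.08, SE 0.11) and Cyp6t3 (-0.09, SE 0.11), the second of which takes part in ecdysteroid synthesis in larvae. Cyp6a2, also linked to insecticide metabolism, differed by -0.19 (SE 0.40) and Cyp6a8, which responds to xenobiotics such as caffeine, by 0.17 (SE 0.47). The spread of both was wide: Cyp6a8 ran from 6.84 to 8.0 in the null arrays and from 6.35 to 8.13 in the wild-type arrays. Cyp6w1 differed by -0.45 (SE 0.33, adjusted p = 0.504), with wild-type array 1 at 4.53 and the other 5 arrays between 3.09 and 3.41.

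Other CYP3-clan genes near the threshold were Cyp6u1 at -0.46 (SE 0.12, adjusted p = 0.0657) and Cyp9f2 at -0.43 (SE 0.12, adjusted p = 0.0770), both without overlap between the groups. Cyp6u1 passed without null array 1 (0.0458). Of the 5 Cyp9 genes 1 fell and 4 did not pass, with Cyp9b2 at -0.11 (SE 0.37). The greatest rises among members that did not pass were those of Cyp28d2 (0.67, SE 0.56), Cyp6a16 (0.64, SE 0.26) and Cyp6a14 (0.58, SE 0.29). Cyp28d2 rested on null array 3, which read 7.13 while the other null arrays read 5.12 and 5.07, and the difference was -0.01 without it. Without null array 3 Cyp6a14 was at 0.22, and without null array 2 Cyp6a16 was at 0.30. Cyp6a22 differed by 0.52 (SE 0.19), Cyp28c1 by 0.32 (SE 0.14), Cyp317a1 by 0.25 (SE 0.13) and Cyp308a1 by 0.00 (SE 0.12).

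The CYP4 clan, whose best studied members hydroxylate fatty acids or make cuticle hydrocarbons, had a share of calls close to that of all genes. Of its 32 measured genes 2 fell, 1 rose and 29 did not pass, so that 9.38% were called against 10.2% of all genes, with a median of -0.09 and a range of -0.82 to 0.72. No gene of this clan differed by 2-fold. Cyp4p2 read 5.48, 5.95 and 5.57 in the null arrays, against 6.73, 6.23 and 6.51 in the wild-type arrays, with no overlap (limma log2 difference -0.82, SE 0.17, adjusted p = 0.0286). Its call ended without null array 1 or 3 (0.0926 and 0.0798) and without wild-type array 1 or 3 (0.0998 and 0.108).

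Cyp4ac3 read 5.13, 5.45 and 5.25 in the null arrays, against 5.68, 5.97 and 5.95 in the wild-type arrays (limma log2 difference -0.59, SE 0.13, adjusted p = 0.0352). The groups did not overlap, but the call did not hold under another quantile normalization (0.142), after centring (0.121) or with a trend in the prior variance (0.0563). It ended too without null array 1 or 3 (0.105 and 0.0761) and without wild-type array 2 or 3 (0.120 and 0.146). Cyp4e2 rose. It read 9.74, 9.71 and 9.33 in the null arrays, against 9.14, 8.90 and 8.59 in the wild-type arrays, with the lowest null array above the highest wild-type array (limma log2 difference 0.72, SE 0.17, adjusted p = 0.0480). Its call was lost in 5 of the 6 such fits: 0.137 and 0.101 (null array 1 or 2), and 0.0526, 0.117 and 0.159 (wild-type array 1, 2 or 3).

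Cyp4g1, the decarbonylase that makes cuticle hydrocarbons in oenocytes, read 8.45, 7.84 and 8.09 in the null arrays, against 8.62, 8.02 and 8.44 in the wild-type arrays. The groups overlapped and array 2 was the lowest in both (limma log2 difference -0.23, SE 0.20, adjusted p = 0.590). None of 5 oenocyte markers passed in limma, with 1 at an unadjusted p under 0.05. The other gene of this subfamily, Cyp4g15, known from the nervous system, was at -0.51 (SE 0.21, adjusted p = 0.209, and 0.0308 with the replicate block). None of the 6 Cyp313 genes passed in limma, with 1 at an unadjusted p under 0.05, Cyp313b1 (-0.52, SE 0.18, adjusted p = 0.143, and 0.0414 without wild-type array 1). Cyp313a1 differed by 0.21 (SE 0.09) near the floor of the arrays. The single genes Cyp311a1 (-0.01, SE 0.16), Cyp312a1 (0.15, SE 0.09), Cyp316a1 (-0.06, SE 0.13) and Cyp318a1 (-0.26, SE 0.18) did not pass. Cyp4d20 (-0.52, SE 0.19) and Cyp4d21 (0.34, SE 0.13), the second of which is active in the adult male head and affects courtship, had adjusted p of 0.157 and 0.168. Cyp4d20 passed without wild-type array 2 (0.0430).

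The mitochondrial clan held the greatest rise of the family. Of its 8 measured genes 1 rose, 0 fell and 7 did not pass (12.5% called, against 10.2% of all genes). In limma 3 of the 8 had an unadjusted p under 0.05, against 27.1% of all genes. Cyp12d1-d (Dmel_CG33503) is one of a pair of nearly identical genes that are known in adult flies for strong induction by DDT and caffeine. It read 5.81, 5.41 and 5.08 in the null arrays, against 3.24, 2.87 and 3.07 in the wild-type arrays. The lowest null array stood well above the highest wild-type array, 5.18-fold higher on average (limma log2 difference 2.37, SE 0.19, adjusted p = 0.00102). Wild-type signals of this gene lay close to the 25th percentile of the arrays, 2.97 to 3.01, where background compresses a difference. The copies are so alike that their signals may not be separable. A second probe set, assigned to both Cyp12d1-d and Cyp12d1-p and therefore no member, read 6.96, 6.35 and 6.95 in the null arrays, against 6.33, 5.90 and 5.73 in the wild-type arrays. These groups also did not overlap, but the difference was 0.77 (SE 0.21, adjusted p = 0.0741), smaller than that of the first probe set.

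The other 5 Cyp12 genes did not pass. Slightly higher, with overlap between the groups, were Cyp12a4 (0.13, SE 0.24), Cyp12b2 (0.06, SE 0.13) and Cyp12e1 (0.15, SE 0.35). Cyp12c1 read 5.32, 4.81 and 5.28 in the null arrays, against 6.23, 5.52 and 6.12 in the wild-type arrays. Its null arrays were all lower (limma log2 difference -0.82, SE 0.22, adjusted p = 0.0646), and it passed with the replicate block (0.00294) and without wild-type array 2 (0.0269). Cyp12a5 differed by -0.35 (SE 0.12, adjusted p = 0.139), with both group means under the mean 25th percentile of 3.00. Cyp301a1, needed for the adult cuticle, was at -0.38 (SE 0.17, adjusted p = 0.238) and Cyp49a1 at -0.17 (SE 0.22, adjusted p = 0.733).

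None of the 3 CYP2-clan members passed in limma, with 1 at an unadjusted p under 0.05. That one was Cyp305a1, which read 6.07, 6.36 and 5.91 in the null arrays, against 5.54, 5.74 and 5.52 in the wild-type arrays (limma log2 difference 0.51, SE 0.14, adjusted p = 0.0714). All null arrays were above all wild-type arrays, and it passed with the replicate block (0.0222), under both other scalings (0.0326 and 0.0460) and without null array 3 (0.0453). Cyp303a1, needed for the structure of sensory bristles, differed by -0.01 (SE 0.10) with both groups near the floor. Cyp304a1 differed by -0.15 (SE 0.34, adjusted p = 0.852), with a range of 7.99 to 9.21 in the null arrays and 8.25 to 9.19 in the wild-type arrays.

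**Figure D2:**
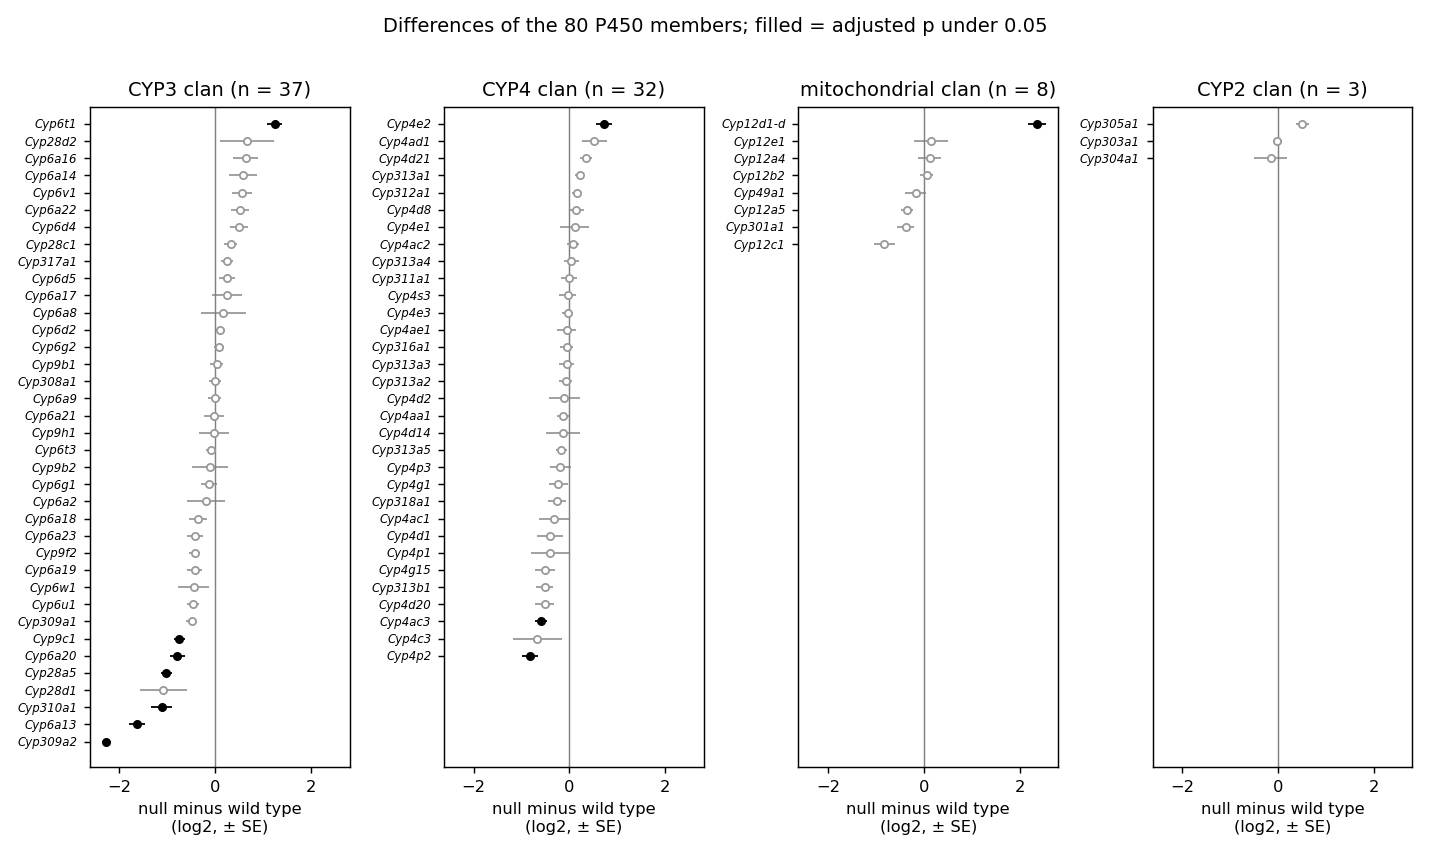
Log2 difference, foxL1 null minus wild type, with limma's standard error, for the 80 P450 members in 4 panels by clan; filled points passed the adjusted threshold of 0.05. Most points lie around 0, with Cyp309a2 at -2.27 and Cyp12d1-d at 2.37 at the ends.

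Neighbouring P450 genes were compared for their calls. Ordered along the arms by the RefSeq table (assembly Release 6 plus ISO1 MT), 41 of the 80 members lay in 14 runs, defined as P450 genes with at most 1 other protein-coding gene between one and the next. Of these 41, 6 were called (14.6%), each in a different run, against 5 of the 39 members outside runs (12.8%) and 10.2% of all genes. With the replicate block 2 runs held 2 calls each, Cyp309a1 beside Cyp309a2 and Cyp4ad1 with Cyp4e2. The block called 9 of the 41 members in runs (22%), against 10 of the 39 outside runs (25.6%) and 17.0% of all genes. Besides the Cyp309 pair, Cyp6a13 at -1.63 lay beside Cyp6a14 at 0.58 (SE 0.29, adjusted p = 0.308), and Cyp28d1 at -1.08 beside Cyp28d2 at 0.67. In the run of 9 genes from Cyp6a22 to Cyp317a1 on arm 2R, Cyp6a20 alone passed, and the other 8 ran from -0.43 (Cyp6a19) to 0.52 (Cyp6a22). Whether genes of a run differ from each other in their change was not tested. The 3 Cyp4p genes were all lower, Cyp4p2 at -0.82, Cyp4p1 at -0.41 (SE 0.40) and Cyp4p3 at -0.19 (SE 0.22), but without wild-type array 1 Cyp4p1 was at -0.02 and Cyp4p3 at -0.01. The neighbours Cyp4ad1, Cyp4e2 and Cyp4e1 were at 0.52 (SE 0.26), 0.72 and 0.11 (SE 0.30), with Cyp4e1 at -0.16 without null array 3.

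**Figure D3:**
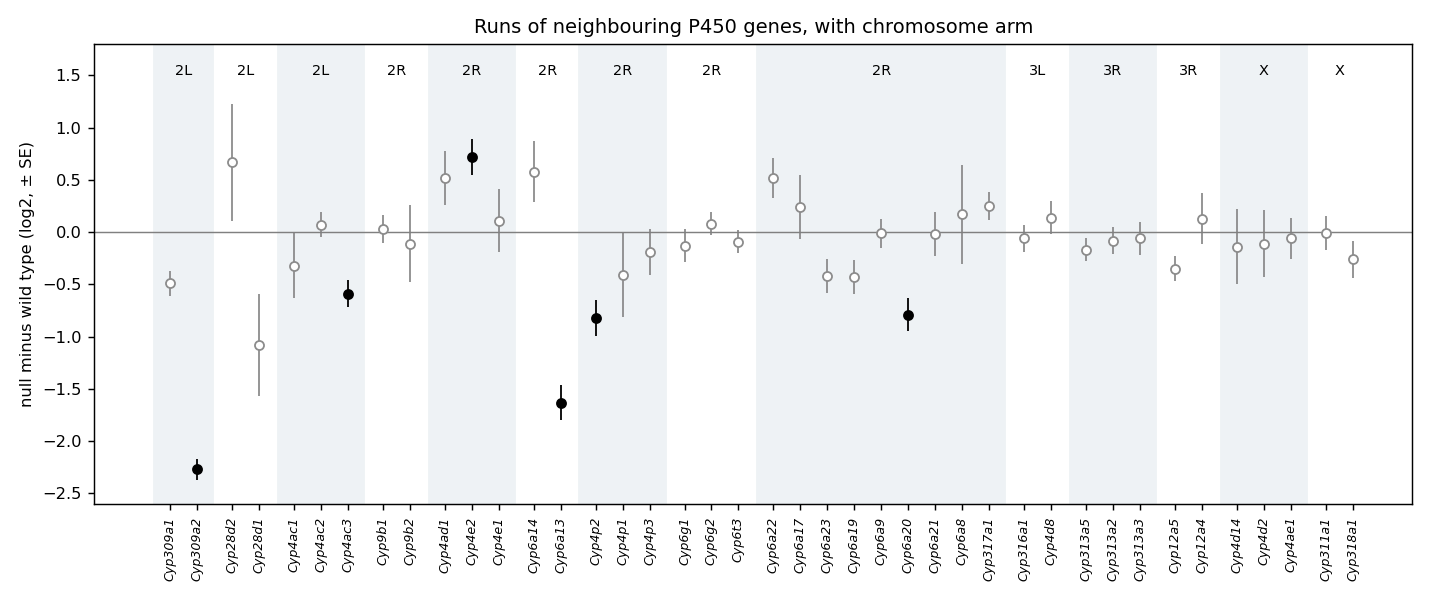
Log2 difference, foxL1 null minus wild type, with limma's standard error, for 41 P450 members in 14 runs of neighbouring genes, shaded in turn and labelled by chromosome arm; filled points passed the adjusted threshold of 0.05. No run has more than 1 filled point, and signs are mixed within the run of 9 genes on arm 2R.

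By chromosome arm, 4 of 13 members on 2L were called, 6 of 33 on 2R, 0 of 6 on 3L, 0 of 15 on 3R and 1 of 13 on X. Of all measured genes 10.3% were called on 2L, 9.51% on 2R, 10.3% on 3L, 10.3% on 3R and 11.3% on X. On 3L and 3R limma gave 3 and 4 members an unadjusted p under 0.05, and with the replicate block Cyp12c1 and Cyp305a1 passed on 3L and Cyp6d4 and Cyp4c3 on 3R.

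Several members varied more between arrays of one genotype than between the genotypes. The distance between the lowest and the highest array of a group was at least 1 log2 unit for 16 members in the null group and 12 in the wild type, with medians of 0.48 and 0.34. These distances were taken for the members only, so no share over all genes stands beside them. Part of the variation between arrays of one genotype was shared by arrays of the same number. Array 2 was the lowest of its genotype in both genotypes for 29 of the 80 members, or 36.2%, against 17.6% of all genes, and the highest in both for 5 members, or 6.25%, against 22.6% of all genes. These shares were looked at after the values had been seen, and what the array number marks is not given in the labels.

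Cyp28d1 read 5.86, 5.30 and 7.09 in null arrays 1 to 3, against 7.15, 6.49 and 7.85 in wild-type arrays 1 to 3. The groups overlapped, and each null array was below the wild-type array of its number, by -1.29, -1.20 and -0.76 (limma log2 difference -1.08, SE 0.49, adjusted p = 0.252). With the block it passed (adjusted p = 0.00210). Cyp4c3 read 5.30, 5.22 and 6.94 in null arrays 1 to 3, against 6.46, 5.78 and 7.24 in wild-type arrays 1 to 3, with array 3 the highest in both genotypes (limma log2 difference -0.67, SE 0.51, adjusted p = 0.526, and 0.0332 with the block). The other members that the block added to the 11 calls were Cyp12c1, Cyp305a1, Cyp309a1, Cyp4g15, Cyp4ad1 (0.0306) and Cyp6d4 (0.0294). Of the members that the block added, Cyp28d1 (0.0429), Cyp12c1 (0.0327), Cyp305a1 (0.0174) and Cyp309a1 (0.0265) passed with array weights too. Array weights also called Cyp6a19 (0.0181), Cyp9f2 (0.0286) and Cyp4d20 (0.0377), which the block did not.

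**Figure D4:**
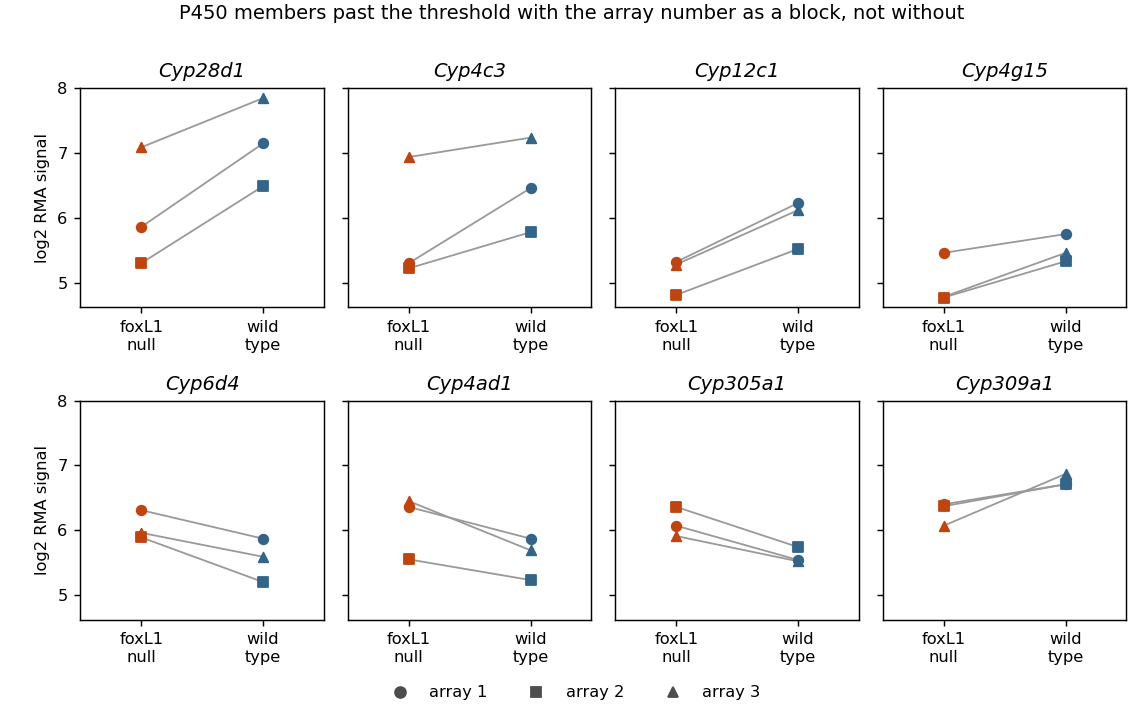
Log2 RMA signal of the 8 P450 members that passed with the array number as a block and not without it, with foxL1 null arrays on the left and wild-type arrays on the right; symbols give the array number and lines join arrays of the same number. Lines run the same way within each panel, from lower null values for Cyp28d1, Cyp4c3, Cyp12c1, Cyp4g15 and Cyp309a1 and from higher null values for Cyp6d4, Cyp4ad1 and Cyp305a1. Picking members by the blocked fit favours such a shared direction.

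A low signal limited some members. In 10 of the 80 both group means lay under 3.00, the mean 25th percentile of the arrays, and 0 of these 10 passed in limma, with 2 at an unadjusted p under 0.05. The other 70 members held all 11 calls, with a median of -0.12. The 2 cyclophilins of the symbol rule differed from each other. Cyp40, known as a partner of the chaperone Hsp90, read 7.81, 7.69 and 8.0 in the null arrays, against 7.08, 7.07 and 7.09 in the wild-type arrays, all null arrays higher (limma log2 difference 0.75, SE 0.11, adjusted p = 0.00727). Cyp1, an abundant cytosolic isomerase, was at -0.13 (SE 0.14, adjusted p = 0.676).

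P450 enzymes need electrons, from P450 reductase and cytochrome b5 in the endoplasmic reticulum and from ferredoxin in mitochondria. Of 7 genes listed as electron carriers 5 had a probe set, and 1 of these fell (20% called, against 10.2% of all genes). CG6870, a gene with similarity to cytochrome b5, read 5.89, 5.10 and 5.41 in the null arrays, against 6.88, 6.38 and 6.24 in the wild-type arrays (limma log2 difference -1.03, SE 0.23, adjusted p = 0.0385). Its null arrays were all lower. Cyt-b5 (-0.13, SE 0.10), Cyt-b5-r (-0.33, SE 0.19) and the ferredoxin genes Fdx1 (-0.31, SE 0.14) and Fdx2 (-0.02, SE 0.11) did not pass. Of 12 transcription factor and sensor genes that are known to control P450 genes or hormone responses, 0 passed in limma. An unadjusted p under 0.05 was reached by 3 (25%, against 27.1% of all genes). These were cnc (-0.24, SE 0.10), which drives the response to oxidative and toxic stress, the xenobiotic receptor gene Hr96 (-0.24, SE 0.10) and Hnf4 (-0.32, SE 0.12). The list ran from -0.32 to 0.21, against the median of -0.07 over all genes. Lower were 11 of the 12, against 7189 of all 11982 genes.

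P450 genes of ecdysone synthesis carry other symbols and were not members. Of 5 measured, 2 fell and 0 rose (40% called, against 10.2% of all genes). The gene dib, for a mitochondrial hydroxylase, read 5.51, 5.06 and 5.09 in the null arrays, against 6.88, 6.77 and 6.40 in the wild-type arrays (limma log2 difference -1.46, SE 0.17, adjusted p = 0.00337). Early in the pathway acts spo, which fell by 1.24 (SE 0.20, adjusted p = 0.0110), with no overlap for either gene. The others were sad (-0.51, SE 0.17), shd (0.33, SE 0.24) and spok (0.01, SE 0.22). Cyp18a1, which inactivates ecdysone and was left out of the rule, had 2 probe sets at -0.23 (SE 0.19) and 0.17 (SE 0.23).

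Enzymes that conjugate P450 products or split esters were counted beside the 10.2% of all genes called, or 17.0% with the replicate block. Of 35 UDP-glycosyltransferase genes 3 rose, 2 fell and 30 did not pass (14.3% called, median -0.17). With the replicate block 7 rose and 7 fell (40.0%). Ugt49C1 was at 1.03 (SE 0.17, adjusted p = 0.0101), Ugt316A1 at 0.72 (SE 0.13, 0.0176) and Ugt37E1, near the floor, at 0.46 (SE 0.10, 0.0324), while Ugt36E1 was at -1.17 (SE 0.20, 0.0134) and Ugt302E1 at -0.54 (SE 0.11, 0.0233). Of 34 measured glutathione S-transferase genes 2 rose, 2 fell and 30 did not pass (11.8% called, median 0.08), and with the block 9 rose and 4 fell (38.2%). GstD5 was at 1.60 (SE 0.24, limma adjusted p = 0.00800), and GstD8 of the same class at -0.85 (SE 0.17, 0.0235). GstE2 was at 0.61 (SE 0.13, 0.0284), and GstE10 of its class at -1.11 (SE 0.11, 0.00154). Of 11 carboxylesterase genes 1 rose, alpha-Est5 at 1.19 (SE 0.25, 0.0292), and 2 fell, alpha-Est3 at -0.55 (SE 0.12, 0.0325) and Jhe, which splits juvenile hormone, at -0.57 (SE 0.14, 0.0452), which is 27.3% called. With the block 1 rose and 4 fell (45.5%).

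Of 24 markers of 4 tissues in which P450 genes are known to be active, 3 passed (12.5%, against 10.2% of all genes). All 3 were among the 7 Malpighian tubule markers, of which 42.9% were thus called. In limma 0 of 5 fat body, 0 of 6 midgut and 0 of 6 tracheal markers passed, with 2, 1 and 0 at an unadjusted p under 0.05. Summed signals add unlogged values, so the brightest genes weigh most. For the fat body markers the sum ran from 8.54 to 9.10 in the null arrays and from 9.20 to 9.45 in the wild-type arrays. Most of it came from srp, with means of 8.56 (null) and 9.14 (wild type). The other fat body markers had means of 2.81 to 5.16. Of these Lsp2 was higher at 0.18 (SE 0.17). AkhR was lower at -0.37 (SE 0.11, limma adjusted p = 0.0945), without overlap between the groups. The tracheal markers summed to 13.45 to 13.81 in the null arrays and 13.83 to 13.85 in the wild-type arrays. Null sums were thus all lower for both lists, but 0 of the 6 tracheal markers were without overlap between the groups. By their means 4 of the 5 fat body and 6 of the 6 tracheal markers were lower, against 7189 of all 11982 genes. The midgut markers summed to 9.59 to 10.18 in the null arrays and 9.52 to 10.83 in the wild-type arrays. Of 7 Malpighian tubule markers 2 fell, Irk3 (-1.01, SE 0.16, adjusted p = 0.00909) and Best2 (-0.56, SE 0.12, 0.0363), and 1 rose, ZnT35C (1.09, SE 0.24, 0.0311), with summed signals of 9.37 to 9.75 in the null arrays and 9.39 to 9.68 in the wild-type arrays. Of 15 measured egg and follicle cell genes 5 rose and 0 fell (33.3% called, against 10.2% of all genes). Those that rose were tor, smg, swa, plu and bcd, by 1.88 to 2.48. The summed signal of the 15 ran from 11.86 to 11.94 in the null arrays and from 9.95 to 10.47 in the wild-type arrays. The other 10 did not pass: osk, whose RNA is also loaded into the egg, was at -0.62 (SE 0.26, adjusted p = 0.216), and the yolk protein and eggshell genes ran from -0.37 to 0.18. The part of these marker differences in the P450 values was not tested.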

How the data were processed

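Total RNA of 6 samples, 3 foxL1 null and 3 wild type, was hybridised to 1-colour arrays. The deposited log2 values come from Partek and RMA, per the submitters' processing notes, which give no versions; RMA includes a quantile step that removes a change common to most transcripts, and its background step shrinks differences of dim genes. The RNA used is stated as 100 ng in the design text and as about 200 ng in the protocol. Of 18952 probe sets 183 controls were left out, and of the 18769 tested 13647 named 1 gene, 402 several and 4720 are unnamed here; for 13544 the symbol was updated by gene ID. The array annotation and a RefSeq gene table gave names and gene order, and no genome build is given in the sources used here for the values.

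The tests were 2-sided, from limma 3.58.1 (lmFit, eBayes; R 4.3.3), with genotype as the one term and Benjamini-Hochberg adjustment over all 18769 probe sets. Standard errors are limma's. The fit was tested on simulated data with independent noise in each array. Such data lack the variation shared by arrays of the same number, so the test does not cover it. With 3 arrays against 3, an exact test of 1 gene cannot reach the threshold, so calls rest on limma's model of the spread, and the number of arrays limits the precision. The design text calls the RNA samples independent, and does not say whether they came from separate collections.

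Named were all members past the threshold, 2 more per family by smallest p, and the 3 greatest rises and falls that did not pass. With members of known function they were 47 in all. Of other lists, members past the threshold were named by rule. Some genes of other lists that did not pass are named too, outside this rule. A few other members are named as neighbours, as the rest of a family, as an example of spread or for their blocked value. The members, lists and tests were chosen with earlier results of these data known. Deviations of same-numbered arrays from their group means correlated at 0.108, 0.544 and 0.224, each above 0.1, and on this basis alone arrays of 1 number were treated as pairs; wild-type array 1 correlated more with null array 3 (0.266). The alternatives were this block, each array left out, another quantile normalization, centring, a filter at the 25th percentile, array weights, a trend in eBayes and the mean of all probe sets of a gene. Leaving the 2 cyclophilins out of the members was decided after the data were seen.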

Additional observations from a re-analysis of the deposited data

How the results depend on the processing

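The replicate block moved the called probe sets from 1472 to 2441, the members that rose from 3 to 6 and those that fell from 8 to 13, and ended no call of a member. Array weights gave 2460 probe sets and 14 members that fell. Leaving out single arrays gave 663 to 1513 probe sets, 2 to 4 members that rose and 5 to 7 that fell, with a median difference of -0.14 to 0.00. Centring each array on its median moved the median of all probe sets from -0.03 to 0.09 and that of the members from -0.07 to 0.05, with 7 members that fell and 4 that rose. Counting the 2 cyclophilins gave 4 members that rose and 8 that fell. No called member changed direction under any alternative run. Centring turned the sign of 14 of the 80 members and array weights that of 5, of which 0 were called. Among the 47 members named by rule the turned values were as follows. After centring they were 0.11 for Cyp303a1, 0.11 for Cyp311a1, 0.06 for Cyp316a1, 0.03 for Cyp6t3 and 0.01 for Cyp9b2. With array weights they were 0.03 for Cyp304a1 and 0.14 for Cyp49a1. With single arrays left out, the values of those that turned ran from -0.01 to 1.02 for Cyp28d2, -0.04 to 0.04 for Cyp303a1, -0.46 to 0.16 for Cyp304a1, -0.06 to 0.09 for Cyp308a1, -0.19 to 0.09 for Cyp311a1, -0.14 to 0.04 for Cyp316a1, -0.44 to 0.26 for Cyp6a2, -0.34 to 0.54 for Cyp6a8, -0.28 to 0.01 for Cyp6g1 and -0.43 to 0.22 for Cyp9b2. The cause was not tested. Signals near the 25th percentile limit what can be seen for the 10 dimmest members, and no value of Cyp12a5, Cyp303a1, Cyp311a1, Cyp313a1, Cyp316a1 or Cyp4d21 could be had with dim probe sets filtered out.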
